A study of Mus musculus with 20 samples.

Results

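Transcript levels in mouse abdominal aorta were set side by side for 5 libraries labelled KO from mice infused with angiotensin II (Ang II) and for 5 from wild-type (WT) mice infused with saline, which are 10 of the 20 libraries of the series. The dose of Ang II was 500 ng per kg per min, and a further 5 WT libraries given the same dose are shown beside them. The series title names DAPK1, but the labels give only the word KO, with no allele, and they give no strain, age, sex or length of infusion. The 2 groups differ in both genotype label and infusion, so the share of each in a difference between them cannot be told apart in this comparison. Ensembl transcripts found in the tables of both WT and KO Ang II were used, 30974 in all, and their FPKM (a count of fragments divided by transcript length and library size) were summed over 14583 genes. Of these, 12546 genes and 20766 single transcripts had a mean of at least 1 FPKM and were tested. Libraries are listed throughout in the order of their titles, which is WTNS_369, WTNS_373, WTNS_523, WTNS_547 and WTNS_550 for WT saline, and KOAng_II402, KOAngII537, KOAngII560, KOAngII612 and KOAngII628 for KO Ang II.

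Ang II is the effector peptide of the renin-angiotensin system. It acts on receptors of vascular smooth muscle to raise intracellular calcium and contract the vessel, and over days it promotes leukocyte entry, matrix deposition and growth of the vessel wall. DAPK1 is a serine/threonine kinase activated by calcium and calmodulin that is known for its part in cell death and autophagy. The aortic wall also holds its own circadian clock, in which activators such as Arntl drive repressors and output factors such as Dbp.

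The depth that the steps between values give was 62.8 to 67.1 megareads in WT saline and 70.1 to 73.5 in KO Ang II, so each KO Ang II library was deeper than each WT saline library, while the WT Ang II libraries spanned 59.0 to 74.4. Across genes, which are not independent replicates, Pearson's r between libraries averaged 0.912 within WT saline, 0.906 within KO Ang II and 0.906 between the groups. Smooth muscle markers summed to 5530 to 12460 FPKM in WT saline and 5328 to 9689 in KO Ang II, and endothelial markers to 231.5 to 494.9 and 186.7 to 393.3, so the defining markers of the labelled tissue were present. Markers of surrounding tissue were present and varied widely within groups. White adipocyte markers summed to 3298 to 11415 and 2992 to 10705 FPKM, brown adipocyte markers to 622.5 to 3461 and 387.1 to 2554, sympathetic neuron markers to 42.2 to 729.8 and 57.3 to 1302, and skeletal muscle markers to 7.94 to 355.7 and 14.3 to 72.3, each for WT saline and then KO Ang II. Only 2 of 12 T and NK cell markers were listed in both tables, with sums of at most 2.24 FPKM in a KO Ang II library. In whole tissue, fewer cells of a type and less RNA per cell cannot be told apart.

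Dapk1 is named in the series title. The gene (ENSMUSG00000021559.14) lies on the plus strand of chromosome 13 at 60601947 to 60763191 in GRCm38 and had 1 transcript in both tables, the coding ENSMUST00000077453. It was at 15.4, 9.48, 10.1, 12.6 and 12.9 FPKM in WT saline and at 4.51, 9.46, 0.514, 6.51 and 2.73 FPKM in KO Ang II. Each KO Ang II library lay below each WT saline library, though KOAngII537 lay only just below. The difference was -1.44 on the log2(FPKM + 1) scale (SE 0.45), which did not pass over all genes (adjusted p = 0.438 by limma with Benjamini-Hochberg adjustment). A second coding transcript, ENSMUST00000226059, which the WT tables do not list, stood at 13.3 FPKM in KOAngII560 and at 0.0223 to 0.345 in the other KO Ang II libraries. With unlisted transcripts taken as 0 the gene difference was -0.50. Which part of the gene was deleted is not known here, so these values do not check the KO label, and every direction below rests on that label.

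Differences past the threshold of 0.05 on the adjusted p (limma, 5 against 5 libraries) were few and were made up mostly of intestinal genes. In the sums per gene 11 of 12546 genes passed, or 0.0877%, of which 10 were higher in KO Ang II (0.0797%) and 1, Bcl6, was lower (0.00797%). At an unadjusted p under 0.05 there were 935 genes, or 7.45%, with 437 higher (3.48%) and 498 lower (3.97%). For 193 genes, or 1.54%, all libraries of 1 group lay above all of the other, with KO Ang II above in 0.709% of genes and below in 0.829%. The median difference over all tested genes was 0.02, and 52.7% of the differences were positive. Among single transcripts 15 of 20766 passed, or 0.0722%, with 11 higher (0.053%) and 4 lower (0.0193%). Without adjustment 1378 transcripts, or 6.64%, had a p under 0.05, with 3.06% higher and 3.57% lower, and the groups did not overlap in 292, or 1.41%, with KO Ang II above in 0.578% and below in 0.828%. The share of a transcript within its gene was expressed as log2 of its FPKM + 1 over the FPKM + 1 of the gene's other transcripts with a mean of at least 1 FPKM. The percentages of a gene given below use all its listed transcripts. For the share 4 of 13212 passed, or 0.0303%, with 2 in each direction (0.0151% higher and 0.0151% lower), and 812, or 6.15%, had an unadjusted p under 0.05 (3.07% higher and 3.07% lower).

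Of the 10 genes higher in KO Ang II, 9 were antimicrobial and secretory genes of the gut lining, and all 10 were listed at 0 FPKM in each of the 5 WT saline libraries. The WT tables hold transcripts with a mean of at least 0.5 FPKM in a WT group, so a gene at 0 in WT saline could be compared only because WT Ang II libraries held it. All 10 averaged under 1 FPKM over the 10 WT libraries and reached the minimum for testing only through KO Ang II, so they had to be higher there. With no such minimum 12 genes passed, 11 of them higher. Reg3b, a C-type lectin with which the intestinal epithelium kills bacteria (chromosome 6, 78370657 to 78373466), was at 7.23, 11.7, 11.9, 8.12 and 8.62 FPKM in KO Ang II (adjusted p = 0.0133 by limma). Defa24, an alpha-defensin of Paneth cells, the antimicrobial cells at the base of the intestinal crypts (chromosome 8, 21734494 to 21735471), was at 3.51, 11.6, 10.7, 6.37 and 7.02 FPKM (adjusted p = 0.0133 by limma). The libraries KOAngII537 and KOAngII560 were the highest for both genes. Zg16, a lectin of goblet cell mucus (chromosome 7, 127050156 to 127087328), was at 1.64, 4.00, 4.09, 2.98 and 2.91 FPKM (adjusted p = 0.0133 by limma), with the same pair of libraries highest.

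The other called genes were 6 more alpha-defensins, Defa20, Defa32, Defa21, Defa30, Defa22 and Defa2, and the model Gm7849, which has no gene name and is given here, after its values were seen, to complete the count. Their means in KO Ang II ran from 2.59 FPKM for Gm7849 to 5.46 for Defa20, and the adjusted p by limma was 0.0133 for all but Defa22 (0.0335) and Gm7849 (0.0344). The 7 defensin transcripts were 82.9% to 99.8% identical over the shorter of each pair (21 pairs, median 92.1%), so reads could move between them and the single members are uncertain. Over the whole list Paneth cell markers summed to 3.63 to 7.68 FPKM in WT saline and 30.1 to 68.5 in KO Ang II. In WT saline that sum was Lyz1 alone, since 8 of the 9 Paneth markers in both tables were listed at 0 there.

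Lyz1, the Paneth cell lysozyme, was at 3.63, 7.68, 5.24, 3.95 and 5.36 FPKM in WT saline and at 10.9, 14.8, 22.7, 10.8 and 15.6 in KO Ang II. All KO Ang II libraries lay above all WT saline libraries, but the gene did not pass (difference 1.36, adjusted p = 0.146 by limma), and Lyz2, its near-identical macrophage copy, could take or give some of its reads. Fabp2, the fatty acid carrier of enterocytes, was listed at 0 in WT saline and was at 1.66, 6.20, 4.91, 2.79 and 3.29 FPKM in KO Ang II (adjusted p = 0.0899 by limma). It too reached the minimum for testing only through KO Ang II, so it had to be higher there. Of 29 enterocyte and intestinal epithelium markers 6 were tested, 4 higher and 2 lower, with a median of 0.85. The higher ones included Reg3b, Fabp2 and the apolipoprotein gene Apoa1 (means 0.470 and 2.74 FPKM). Each of these reached the minimum for testing only through KO Ang II and had to be higher there. The minimum thus fixed this count and median in part. Those in both tables summed to 15.8 to 25.6 FPKM in WT saline and 30.3 to 53.5 in KO Ang II. The called intestinal genes appeared in part of the WT Ang II group: Reg3b was at 2.92 FPKM in WTAngII580 and 5.18 in WTAngII581 and was listed at 0 in the other 3. The same 2 WT Ang II libraries held all the WT Ang II signal of the called intestinal genes. Lyz1 was unlike them, at 8.33, 13.99, 6.86, 20.9 and 16.3 FPKM in WTAng_II519, WTAng_II536, WTAngII568, WTAngII580 and WTAngII581.

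**Figure D1:**
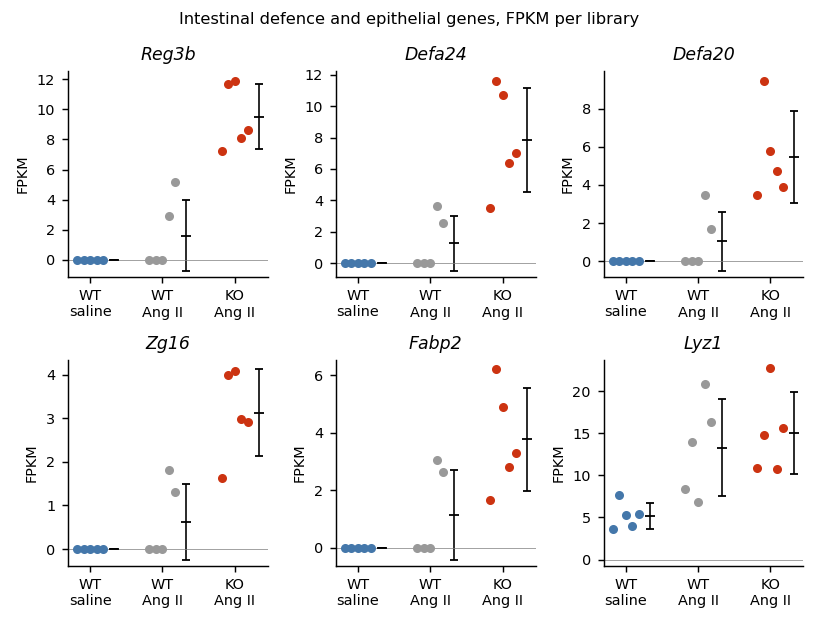
FPKM of 6 intestinal genes in each library (points, in the order of the titles within a group), with the group mean and SD (n = 5, bars). Reg3b, Defa24, Defa20, Zg16 and Fabp2 are listed at 0 in all WT saline and in 3 WT Ang II libraries and are above 0 in all KO Ang II libraries, whereas Lyz1 is present in every library.

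The tables of KO Ang II list further genes of this kind that the WT tables do not hold. Of 487 genes with annotated transcripts only in the KO Ang II tables, 77 averaged 1 FPKM or more, and 18 of the 487 were on the intestinal marker lists. They included Reg3g, a lectin related to Reg3b, with 2.43 to 4.95 FPKM, Tff3, a goblet cell peptide, with 0.55 to 2.55, Vil1, the villin of the brush border, with 0.762 to 1.87, and Epcam, an epithelial adhesion molecule, with 0.608 to 1.31. The 18 genes summed to 14.98 to 33.1 FPKM per KO Ang II library. They have no WT value and were not tested.

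These calls moved with the processing. None of the 12531 genes left passed when the intestinal marker genes were taken out of the test, with 924 at an unadjusted p under 0.05. None passed either in the refits without WTNS_523, WTNS_547 or KOAngII537, in which the smallest adjusted p by limma was 0.0508 to 0.0634. Leaving out all 3 libraries numbered below 500 gave 0 genes as well (822 at an unadjusted p under 0.05).

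Bcl6, a transcriptional repressor that restrains inflammatory and lipid genes (ENSMUSG00000022508.5, chromosome 16, 23965052 to 23988852, minus strand), was the only gene that passed as lower. It was at 23.01, 24.5, 23.5, 26.5 and 23.9 FPKM in WT saline and at 12.8, 12.3, 16.6, 15.5 and 17.8 in KO Ang II. The groups were well apart, with means of 24.3 ± 1.34 and 14.98 ± 2.37 FPKM (SD, n = 5), and the 5 WT Ang II libraries, at 16.5 to 19.2 FPKM, lay below WT saline and overlapped the upper KO Ang II libraries. Bcl6 fell by 0.67 on the log2 scale (SE 0.11, adjusted p = 0.0229 by limma). The coding transcript ENSMUST00000023151 passed by itself, at -0.68 (adjusted p = 0.0445 by limma), but in 0 of the 10 refits without 1 library. The direction held in all 22 alternatives, but the gene passed in only 3 of the 10 refits without 1 library and in 5 of the 12 other alternatives. Its adjusted p was 0.179 without the intestinal marker genes and ranged from 0.0146 to 0.323.

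The bases just upstream of Bcl6 are shown because it was the only gene that passed as lower. RefSeq windows (GRCm38.p6) of 250 bases before to 50 after a gene's start matched 4 of 5 genes sought. Capitals mark CACGTG, the E-box read by clock factors, and TTCNNNGAA, the STAT motif; TTANGTAA, the D-box read by Dbp and Nfil3, was searched too, and all 3 were read on both strands. The upstream part of the Bcl6 window, chr16:23988853-23989102 on the minus strand, reads 5′ to 3′ as follows.
Bcl6: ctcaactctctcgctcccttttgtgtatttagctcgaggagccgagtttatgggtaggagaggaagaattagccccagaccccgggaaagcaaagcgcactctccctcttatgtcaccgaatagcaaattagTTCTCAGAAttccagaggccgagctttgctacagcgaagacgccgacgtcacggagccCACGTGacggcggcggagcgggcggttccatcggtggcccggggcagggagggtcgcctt
The E-box starts at -60 and the STAT motif at -118 relative to the RefSeq start, and the D-box letters are not in this window. A second RefSeq start of Bcl6 has a window with 3 STAT motifs and neither other motif. Among all 32851 windows 7.15% hold the E-box, 8.3% the STAT motif and 2.32% the D-box, so each match is a description of these letters only.

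The clock output factors, which carry the rhythm of the clock to other genes, were mostly higher in KO Ang II without passing. Of 9 members, all tested, 7 were higher and 2 lower in KO Ang II with a median of 0.60, against 0.02 over all genes, and 5 were higher and 2 lower at an unadjusted p under 0.05, against 3.48% and 3.97% of all genes. None passed over all genes. Dbp, a transcriptional activator of the PAR-bZIP family (chromosome 7, 45705088 to 45710203), came closest: it was at 6.57, 5.99, 13.96, 8.49 and 5.42 FPKM in WT saline and at 69.3, 47.8, 34.5, 19.98 and 65.9 in KO Ang II. The groups did not overlap, and the lowest KO Ang II library was KOAngII612. The difference was 2.36 (SE 0.41, adjusted p = 0.0509 by limma), and it ranged from 2.03 to 2.64 over the alternatives, of which 4 of 22 passed. Of the 4 listed Dbp transcripts 3 were higher in each KO Ang II library than in any WT saline library, and in ENSMUST00000211748 the groups overlapped, with KOAngII612 at 2.18 FPKM and WTNS_373 at 2.50.

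Tef, a relative of Dbp, was at 10.95 ± 6.87 and 25.5 ± 5.72 FPKM (SD, n = 5), and Hlf, of the same family, at 1.55 ± 0.50 and 2.91 ± 0.94, with overlapping groups in both. Bhlhe40, a repressor of the clock that hypoxia and growth signals also induce, was at 9.81, 10.99, 9.67, 7.08 and 10.7 FPKM in WT saline and at 33.8, 26.4, 18.6, 31.5 and 24.7 in KO Ang II. Again the groups did not overlap, and the difference of 1.38 did not pass (SE 0.29, adjusted p = 0.146 by limma). Nfil3, which represses the D-box genes that Dbp activates, moved the other way, from 21.8, 14.6, 15.7, 15.6 and 19.5 FPKM in WT saline to 3.82, 3.50, 4.92, 13.9 and 3.03 in KO Ang II. The library KOAngII612, lowest for Dbp, was the highest for Nfil3, and the difference was -1.61 (SE 0.34, adjusted p = 0.156 by limma). Without KOAngII612 it was -1.94 and passed (adjusted p = 0.037 by limma), as Dbp did (2.63, the same adjusted p), but this leaves out the library that went most against both differences. Nfil3 passed in 1 of the 10 refits without 1 library and in 1 of 12 other alternatives.

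**Figure D2:**
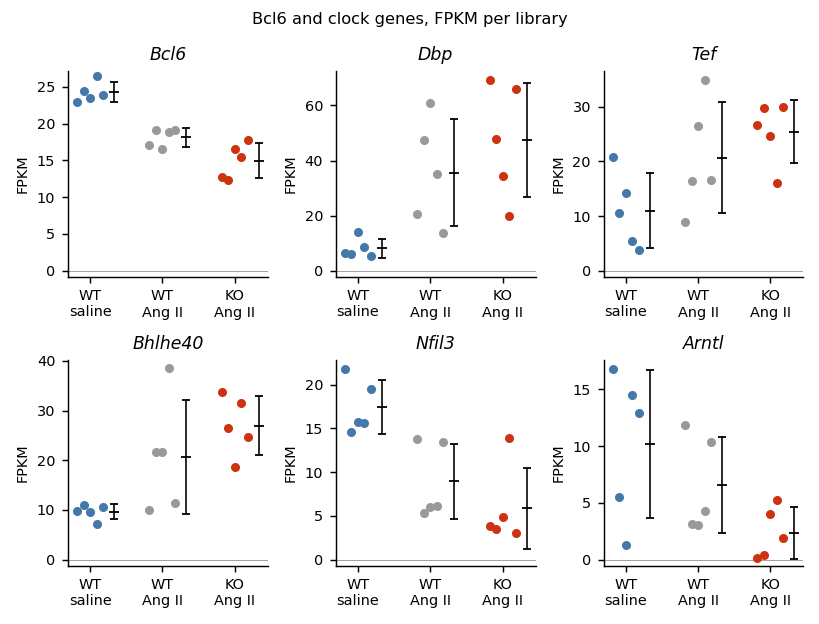
FPKM of Bcl6 and of the clock genes Dbp, Tef, Bhlhe40, Nfil3 and Arntl in each library (points, in the order of the titles), with group mean and SD (n = 5, bars). Bcl6 is lowest in KO Ang II, Dbp and Bhlhe40 lie above every WT saline library there, and Nfil3 lies below them with KOAngII612 as the highest KO Ang II point.

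In the core of the clock the values were more scattered. Of 14 tested members of 15, 10 were higher and 4 lower with a median of 0.20, and 3 higher and 1 lower had an unadjusted p under 0.05, against the same shares of all genes. Arntl, the activator that pairs with Clock, was at 16.8, 5.49, 1.33, 14.5 and 12.9 FPKM in WT saline and at 0.101, 0.419, 4.06, 5.25 and 1.90 in KO Ang II (difference -1.73, adjusted p = 0.522 by limma). WTNS_523 lay within the KO Ang II range. Nr1d1, the repressor of Arntl, was at 22.8, 19.96, 26.9, 31.9 and 2.25 and at 42.5, 40.6, 40.7, 27.0 and 63.2 FPKM, Cry2 at means of 1.72 ± 0.33 and 3.08 ± 0.82, and Ciart, another repressor, at 0.273 ± 0.225 and 2.05 ± 1.70 (SD, n = 5), all with overlap. Ciart reached the minimum for testing only through KO Ang II, so it had to be higher there. In WT Ang II the mean of Dbp was 35.6 FPKM, of Bhlhe40 20.7 and of Nfil3 8.94, between those of the compared groups. That of Nr1d1 was not, at 72.6 FPKM in WT Ang II against 20.75 in WT saline and 42.8 in KO Ang II. WT Ang II against WT saline shares the saline libraries, so the values stand side by side only. The hour of tissue collection is not given in the labels, and its part in these values was not tested.

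The transcript with the smallest adjusted p was one of Il11ra1, the receptor chain for interleukin-11, a cytokine of fibroblasts and smooth muscle (chromosome 4, 41699989 to 41769474, plus strand). In WT saline the main form was ENSMUST00000098132, at 53.2, 50.5, 38.2, 61.2 and 58.4 FPKM, and in KO Ang II it was at 2.90, 3.18, 6.02, 3.24 and 8.66. The groups lay far apart, and the transcript fell by 3.28 (SE 0.31, adjusted p = 0.00103 by limma). ENSMUST00000108042 did the reverse, at 9.05, 7.93, 15.5, 15.02 and 11.3 FPKM in WT saline and at 50.3, 59.5, 90.3, 67.2 and 36.9 in KO Ang II. Its level alone did not pass (2.26, adjusted p = 0.0767 by limma), but its share within the gene rose by 4.53 while that of the first form fell by 4.37 (both adjusted p = 0.00541 by limma).

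As a percentage of the listed Il11ra1 FPKM, the first form went from 43.2% to 73.6% in the WT saline libraries to 4.04% to 12.4% in KO Ang II, and the second from 9.86% to 17.5% to 53.0% to 86.2%. The gene sum was at 86.9 ± 10.8 and 77.3 ± 16.9 FPKM (SD, n = 5), a difference of -0.18 (adjusted p = 0.93 by limma). In WT Ang II the libraries had 5.44, 5.06, 5.51, 7.86 and 16.6 FPKM of the first form and 85.7, 73.1, 94.0, 16.03 and 59.98 of the second. WTAngII580 had the least of the second form and the lowest sum of all listed forms. Another form, ENSMUST00000108040, was at 29.6 FPKM in WTNS_523, 17.8 in KOAngII628 and 31.1 in WTAngII581 and under 1 in the other libraries. Both share changes and the fall of the first form passed in all 10 refits without 1 library and in every other alternative run for them.

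**Figure D3:**
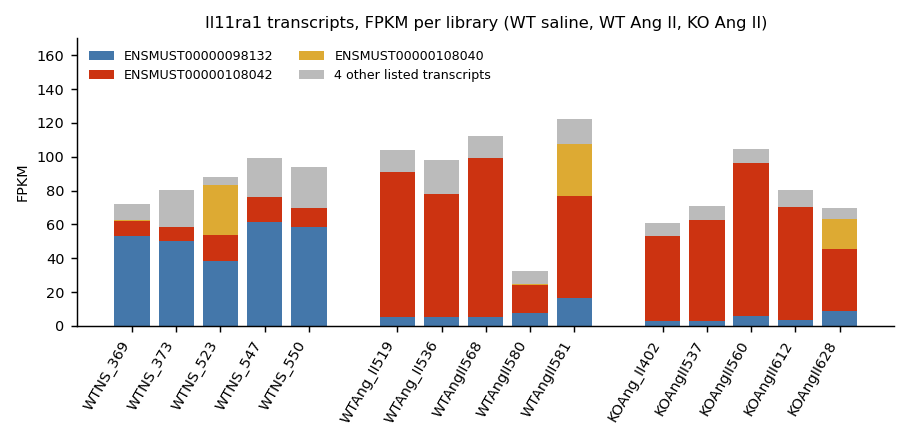
Stacked FPKM of the listed Il11ra1 transcripts in each of the 15 libraries (x axis, library titles). ENSMUST00000098132 is the tallest part of each WT saline bar and ENSMUST00000108042 that of each WT Ang II and KO Ang II bar, while the total heights overlap between groups.

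The 2 forms differ only in the first exon, which is outside the coding sequence, at 41760196 to 41760551 for ENSMUST00000098132 (356 nt) and at 41762309 to 41762423 for ENSMUST00000108042 (115 nt); the remaining 1653 nt are the same. Of the stretches of 25 nt in the shared exons 74.4% also occur in transcripts of other genes, among them the near-identical copies Il11ra2 and Gm13305 on chromosome 4, so the level of the gene is uncertain. None of the 332 and 91 stretches of the 2 first exons occur in another annotated gene. Other forms of Il11ra1 were not part of that search. ENSMUST00000108040 starts at 41760454, inside the first exon of ENSMUST00000098132, so the percentages of ENSMUST00000098132 do not hold all forms that begin there. ENSMUST00000108040 made up 25.6% of the gene in KOAngII628. How shared reads were divided among forms is not known here. The bases before the first exon of the form that rose in share are shown because only this start tells that form apart from ENSMUST00000098132. They lie at chr4:41762060-41762308 on the plus strand (RefSeq, GRCm38.p6) and hold none of the 3 motifs.
Il11ra1: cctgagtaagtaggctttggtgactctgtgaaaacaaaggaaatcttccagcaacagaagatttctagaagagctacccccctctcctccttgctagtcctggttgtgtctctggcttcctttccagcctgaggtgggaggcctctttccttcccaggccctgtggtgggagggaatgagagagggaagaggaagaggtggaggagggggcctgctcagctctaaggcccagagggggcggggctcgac

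Outside the gut genes, 2 further transcripts rose. ENSMUST00000100955 of Gtf2h5, a small subunit of the repair and transcription factor TFIIH, was at 0.485, 0.543, 0.138, 0.244 and 0.153 FPKM in WT saline and at 4.02, 6.27, 3.79, 3.79 and 2.09 in KO Ang II. The groups did not overlap, and the transcript rose by 1.89 (SE 0.30, adjusted p = 0.0291 by limma). It made up at most 3.28% of the gene in WT saline and 13.5% to 27.8% in KO Ang II (share difference 2.05, adjusted p = 0.0399 by limma), and the main form ENSMUST00000039487 lost the same share. In WT Ang II the level of ENSMUST00000100955 was 1.19 to 5.96 FPKM, with a mean of 3.68 against 3.99 in KO Ang II.

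ENSMUST00000114653 of Fmr1, the RNA-binding protein lost in fragile X syndrome (chromosome X, 68678817 to 68717963), was at 0.571, 1.87, 0.678, 1.10 and 2.06 FPKM in WT saline and at 5.10, 5.91, 6.41, 5.11 and 3.98 in KO Ang II. Each KO Ang II library lay above each WT saline library, and the transcript rose by 1.52 (SE 0.23, adjusted p = 0.0212 by limma). The sum of the gene showed the same order, at 2.69 ± 0.78 and 6.34 ± 1.15 FPKM (SD, n = 5, adjusted p = 0.0551 by limma). In the 5 WT Ang II libraries this transcript was as high, at 4.05 to 8.29 FPKM.

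Among the transcripts that fell, ENSMUST00000122985 of Naa80, the enzyme that acetylates the start of actin, was at 4.71, 5.03, 2.95, 3.16 and 2.68 FPKM in WT saline and at 1.52, 1.20, 0.935, 0.675 and 0.889 in KO Ang II (-1.19, adjusted p = 0.0212 by limma). ENSMUST00000137109 of Stx12, a syntaxin of endosomes, was at 2.34, 2.53, 3.13, 2.17 and 2.97 and at 1.14, 0.908, 0.853, 1.19 and 1.12 FPKM (-0.82, adjusted p = 0.0212 by limma). In both transcripts each KO Ang II library lay below each WT saline library. The Stx12 transcript is a minor form of at most 8.63% of its gene, whose main form differed by -0.10. Apart from the pair of Il11ra1 these transcript calls were less firm: of the refits without 1 library, the called transcripts other than that of Il11ra1 passed in 0 to 2 of 10. Their adjusted p also depends on the called gut transcripts, which hold many of the smallest p in the same adjustment. Taking out the intestinal genes was run for gene sums only, so whether these transcripts pass without them was not tested.

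MHC class II genes, with which macrophages, dendritic cells and B cells show peptides to T cells, had higher values in KO Ang II, though none passed over all genes. Of 9 members 7 were tested and all 7 lay above 0 (median 0.83), and 6 had an unadjusted p under 0.05, against 3.48% of all genes in that direction. H2-DMa, which loads peptides onto class II molecules (chromosome 17, 34119541 to 34139101), was at 1.76, 2.36, 3.03, 2.04 and 1.05 FPKM in WT saline and at 3.87, 4.02, 4.40, 4.91 and 4.65 in KO Ang II. H2-Ab1, a class II beta chain, was at 16.4, 20.04, 24.6, 21.2 and 16.2 and at 27.6, 36.4, 39.8, 39.8 and 33.2 FPKM. In both genes all KO Ang II libraries lay above all WT saline libraries, with differences of 0.85 (adjusted p = 0.159 by limma) and 0.82 (adjusted p = 0.33 by limma).

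Cd74, the invariant chain, was at 60.3 ± 12.9 and 94.4 ± 15.4 FPKM, H2-Aa at 25.5 ± 7.98 and 45.3 ± 9.25, and H2-Eb1 at 18.4 ± 5.70 and 34.9 ± 8.35 (SD, n = 5), with overlap between the groups in each. WT Ang II means were higher than those of KO Ang II for these genes, at 48.5 FPKM for H2-Ab1 and 130.8 for Cd74. The WT Ang II libraries with no Reg3b, WTAng_II519, WTAng_II536 and WTAngII568, had 72.9, 60.95 and 30.7 FPKM of H2-Ab1. Those with Reg3b, WTAngII580 and WTAngII581, had 36.97 and 40.9 FPKM, and a link between the genes was not tested.

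Macrophage markers had higher values in KO Ang II too, and none passed. All 17 were tested and lay above 0 (median 0.27, against 0.02 over all genes), with 5 at an unadjusted p under 0.05, against 3.48% of all genes in that direction; their sum was 296.2 to 428.7 FPKM in WT saline and 338.8 to 677.1 in KO Ang II. Cd68, a lysosomal protein of macrophages, was at 1.09, 1.29, 2.27, 2.95 and 3.39 FPKM and at 2.71, 7.90, 5.88, 12.5 and 7.57, with only KOAng_II402 inside the WT saline range (difference 1.32, adjusted p = 0.33 by limma). Ctss, a protease of the class II pathway, was at 12.8 ± 2.26 and 21.1 ± 6.84, and C1qc, a complement subunit, at 28.2 ± 4.55 and 38.0 ± 8.72 FPKM (SD, n = 5). Coro1a, an actin regulator of leukocytes chosen after its values were seen, was at 3.32, 4.59, 7.49, 4.57 and 7.30 and at 8.38, 12.6, 10.6, 10.8 and 12.9 FPKM, without overlap (difference 0.94, adjusted p = 0.121 by limma).

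MHC class I genes were positive in 13 of 13 tested members with a median of 0.20, led by H2-Q7 (2.03 ± 0.75 and 3.89 ± 1.30 FPKM) and H2-K1 (142.2 ± 25.2 and 185.5 ± 22.5; SD, n = 5). Interferon response genes were positive in 14 of 21 with a median of 0.13, and 0 had an unadjusted p under 0.05. Of chemokines, cytokines and adhesion genes 14 of 18 tested were positive with a median of 0.42. Ccl2, the chemokine that draws monocytes, was at 0 to 0.155 FPKM in WT saline and at 0.965, 2.01, 0.203, 8.97 and 0.804 in KO Ang II, where KOAngII612 stood apart (difference 1.31, adjusted p = 0.447 by limma). Ccl2 reached the minimum for testing only through KO Ang II, so it had to be higher there. Spp1, the matrix protein osteopontin, was at 5.64 ± 3.22 and 14.1 ± 8.76 FPKM (SD, n = 5), again highest in KOAngII612. Beside these lists, markers of neutrophils (sums 2.80 to 49.9 and 4.76 to 238.7 FPKM) and mast cells (9.78 to 23.4 and 9.26 to 33.8) overlapped between groups, and the intestinal signal described above was in every KO Ang II library; their part in the immune values was not tested.

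**Figure D4:**
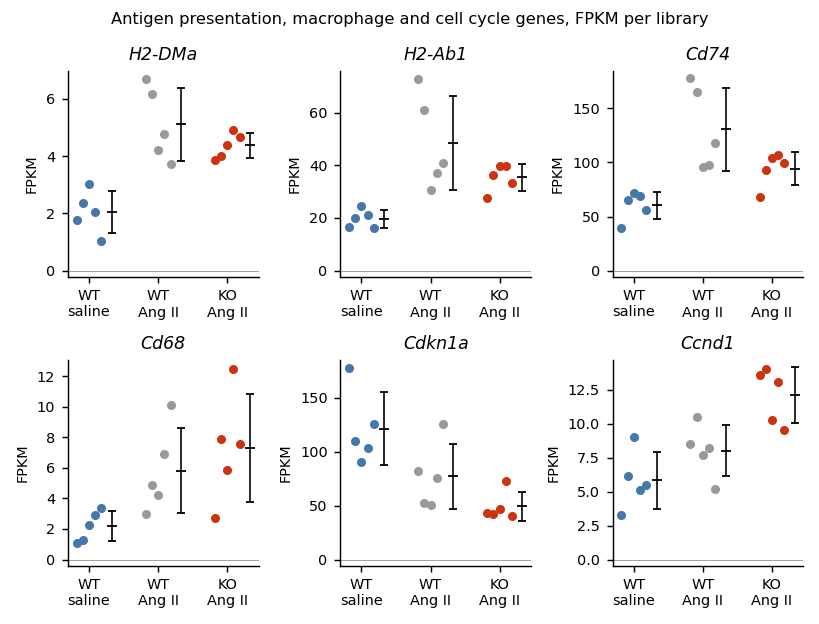
FPKM of 3 class II genes, the macrophage marker Cd68 and the cell cycle genes Cdkn1a and Ccnd1 in each library (points, in the order of the titles), with group mean and SD (n = 5, bars). All KO Ang II points lie above the WT saline points for H2-DMa, H2-Ab1 and Ccnd1 and below them for Cdkn1a.

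Of the cell cycle genes none passed. Cdkn1a, the inhibitor p21 that arrests the cycle and is also induced by glucocorticoids (chromosome 17, 29090976 to 29100727), was at 178.1, 110.0, 90.1, 103.4 and 125.9 FPKM in WT saline and at 43.4, 42.7, 47.0, 73.3 and 40.7 in KO Ang II. Ccnd1, the cyclin that drives entry into the cycle, was at 3.28, 6.16, 9.05, 5.12 and 5.51 and at 13.6, 14.0, 10.3, 13.1 and 9.52 FPKM. The groups did not overlap in either gene, but neither passed, with -1.28 (SE 0.25, adjusted p = 0.115 by limma) and 0.98 (SE 0.21, adjusted p = 0.159 by limma). Top2a, a marker of dividing cells, was at 0.236 and 2.31 FPKM on average (difference 1.14, adjusted p = 0.51 by limma), the latter mean resting in large part on 7.41 FPKM in KOAngII612. Over the list 11 of 18 tested members were positive, with 4 higher and 2 lower at an unadjusted p under 0.05, against 3.48% and 3.97% of all genes. Their median was 0.16 and was below 0 without KOAngII612 and with a mean of at least 5 FPKM. Among the higher members Top2a and Rrm2 averaged under 1 FPKM over the WT libraries. Both reached the minimum for testing only through KO Ang II, so they had to be higher there.

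Glucocorticoid response genes lay mostly below WT saline: 13 of 17 tested differences were negative, with a median of -0.46, and 6 were lower at an unadjusted p under 0.05, against 3.97% of all genes. None passed. Beside Cdkn1a these included Ddit4, an inhibitor of mTORC1 signalling, at 33.5 ± 8.53 and 18.97 ± 7.28 FPKM, Errfi1, an inhibitor of the EGF receptor, at 90.6 ± 39.6 and 36.7 ± 19.2, Tsc22d3, the glucocorticoid-induced leucine zipper protein, at 90.4 ± 31.6 and 49.6 ± 22.6, and Klf9 at 87.3 ± 17.2 and 61.9 ± 7.39 (SD, n = 5). All 4 overlapped between the groups. Immediate early genes were negative in 14 of 20 with a median of -0.22; Klf2, a flow-responsive endothelial factor, was at 22.8 ± 2.88 and 16.3 ± 2.55 FPKM and Btg2 at 22.6 ± 4.22 and 14.5 ± 2.58 (SD, n = 5).

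Further genes with small p that did not pass were lower in KO Ang II: Malat1, a nuclear noncoding RNA, at 226.2, 131.5, 162.0, 96.2 and 82.2 FPKM in WT saline and 53.2, 52.7, 46.9, 63.3 and 63.2 in KO Ang II, without overlap (-1.22, adjusted p = 0.146 by limma). Omd, a matrix proteoglycan, was at 16.9 ± 3.58 and 8.39 ± 3.15 FPKM, Sh2b1, an adaptor of insulin signalling, at 3.27 ± 0.69 and 1.05 ± 0.51, and Tnfrsf25, a death receptor, at 4.73 ± 1.16 and 2.56 ± 0.32 (SD, n = 5; adjusted p = 0.104 to 0.216 by limma). On the higher side Napsa, an aspartic protease, was at 0.422 ± 0.323 and 2.42 ± 0.97 FPKM (adjusted p = 0.0855 by limma), and Xpo4, a nuclear transport receptor, at 0.209, 0.191, 0.475, 0.335 and 0.325 and at 3.71, 3.88, 0.376, 4.75 and 3.24 FPKM. Napsa reached the minimum for testing only through KO Ang II, so it had to be higher there. For Xpo4 the library KOAngII560 alone lay within the WT saline range, and the difference of 1.54 did not pass. Without that library it became 1.90 and passed (adjusted p = 0.00746 by limma), but this leaves out the library that went against the difference. Xpo4 passed in 1 of the 10 refits without 1 library and in 1 of 11 other alternatives. In the WT Ang II libraries Xpo4 was as high, at 1.425 to 4.28 FPKM, with a mean of 3.58 against 3.19 in KO Ang II.

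Contractile and signalling genes of smooth muscle differed little between the groups. Of 22 contractile genes, all tested, 18 were negative with a median of -0.11, and 0 had an unadjusted p under 0.05. Acta2, the smooth muscle actin, was at 5343 ± 1755 and 4431 ± 1009 FPKM, and Myh11, the smooth muscle myosin heavy chain, at 904.2 ± 289.3 and 708.3 ± 149.2 (SD, n = 5). Among 18 tested vasoconstrictor receptors and G proteins the median was 0.03, with 2 lower at an unadjusted p under 0.05, against 3.97% of all genes: Adra1d, an alpha1 adrenoceptor, at 15.4 ± 3.71 and 10.1 ± 1.05 FPKM, and Npy1r, the neuropeptide Y receptor, at 33.6 ± 12.3 and 19.8 ± 8.22 (SD, n = 5). The median was -0.12 over 19 RhoA-ROCK and myosin phosphatase genes and 0.11 over 21 calcium channels, pumps and stores. In the latter list Atp2b1, the calcium pump of the cell surface, was at 9.01 ± 5.23 and 17.4 ± 3.82, and Camk2d, a calmodulin-dependent kinase, at 18.8 ± 2.93 and 12.9 ± 3.55 FPKM (SD, n = 5). Medians were -0.002 for 21 vasodilator and potassium channel genes, 0.03 for 10 RGS regulators, 0.30 for 11 renin-angiotensin genes and -0.09 for 9 genes of DAPK kinases and their substrates.

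Matrix and metabolic lists also had medians not far from the 0.02 of all genes, at -0.05 to 0.20. In several of these lists, however, more members were positive than the 52.7% of all tested genes. Collagens and matrix proteins were positive in 26 of 39 with a median of 0.16; Col8a1, a collagen of the intima, was at 5.45, 8.11, 7.60, 5.90 and 5.32 FPKM in WT saline and at 11.4, 10.2, 14.8, 30.9 and 11.8 in KO Ang II, without overlap (difference 1.07, adjusted p = 0.271 by limma). Loxl2, a collagen cross-linking enzyme, was at 9.19 ± 3.90 and 2.31 ± 2.71 FPKM (SD, n = 5), the latter raised by 7.11 in KOAngII537. Medians were -0.05 for 18 matrix proteases and inhibitors and -0.04 for 19 TGF-beta genes. Of 41 nuclear genes of oxidative phosphorylation 38 were positive, with a median of 0.14 and 0 at an unadjusted p under 0.05. The medians were 0.12 for 13 mitochondrially encoded genes (12 positive), 0.10 for 23 fatty acid oxidation genes (18 positive) and 0.20 for 22 lipogenesis genes (15 positive). The sums of the adipocyte markers given above moved within the same ranges, and their part was not tested. Heat shock genes (-0.03, 18 tested), the unfolded protein response (0.07, 22), apoptosis and autophagy (0.04, 29), NADPH oxidase and antioxidant enzymes (0.07, 25), SR proteins and hnRNPs (-0.04, 28) and the Bcl6 and STAT5-SOCS list (-0.04, 14) had medians near that of all genes. Over the 22 alternatives the median changed sign in 2 for collagens and matrix, mitochondrially encoded genes, RGS regulators, heat shock genes, SR proteins and the Bcl6 list, in 1 for the unfolded protein response and apoptosis, in 3 for fatty acid oxidation, in 4 for TGF-beta and vasoconstrictor genes and in 5 for matrix proteases.

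**Figure D5:**
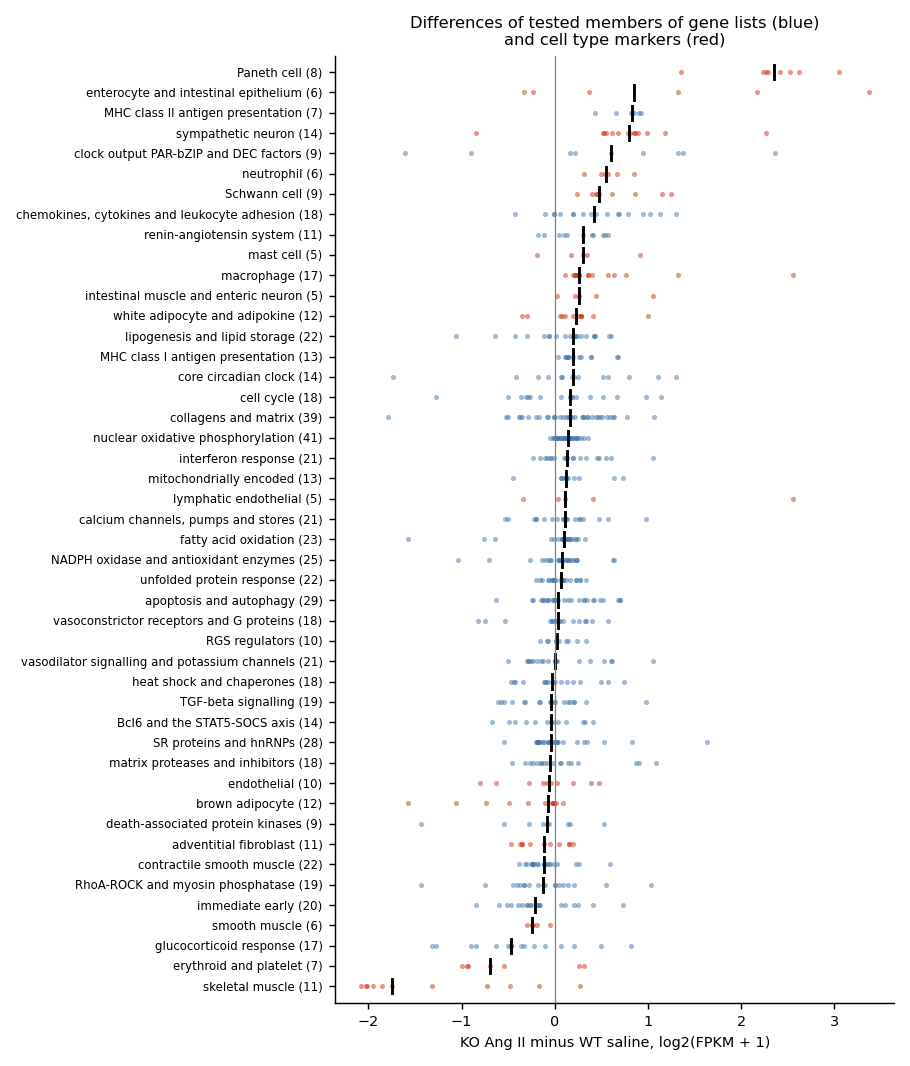
Differences between KO Ang II and WT saline on the log2(FPKM + 1) scale (x axis) for the tested members of 46 gene and marker lists with at least 5 of them (rows, number tested in brackets); each point is a gene and the black bar the median. Paneth cell markers have a median of 2.36, which the minimum for testing fixes in part since 7 of the 8 tested reached it only through KO Ang II; MHC class II genes are all above 0, and skeletal muscle markers have a median of -1.75.

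Among markers of other cells, skeletal muscle had the lowest median, -1.75 over 11 tested, with wide spread within WT saline, and 0 had an unadjusted p under 0.05. Sympathetic neuron markers were positive in 13 of 14 with a median of 0.80, which became -0.51 without the 3 libraries whose title number is below 500. Schwann cell markers were positive in 9 of 9 with a median of 0.48, erythroid and platelet markers negative in 5 of 7 with a median of -0.69, and brown and white adipocyte markers had medians of -0.07 and 0.22, which changed sign in 5 and 1 of the 22 alternatives. Medians were -0.24 for smooth muscle, -0.06 for endothelium, -0.11 for adventitial fibroblasts and 0.11 for lymphatic endothelium, of which the second and the last changed sign in some alternatives. Intestinal muscle and enteric neuron markers were positive in 5 of 5 with a median of 0.26, which became -0.13 without the 3 libraries numbered below 500. At most 1 marker each of the pancreas, the mesothelium and the kidney and adrenal was tested.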

How the data were processed

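The authors deposited 1 table per library with FPKM per transcript; the unit was taken from the values, which times transcript length fall on whole multiples of a step in each library (98.7% to 99.1% of values under 50 reads within 0.05 of a whole number), and reads and fragments cannot be told apart. The submitters' processing notes name bcl2fastq, FastQC, fastp and mm10. No aligner or quantification program is named there. Per the labels' protocols, TRIzol was used for extraction and a NEBNext Ultra kit for the libraries. Transcripts that the authors assembled themselves carry no gene name and were left out; they held 12.2% to 15.8% of the summed FPKM of a library. The WT tables hold transcripts with a mean of at least 0.5 FPKM in a WT group, so genes found only in KO Ang II are outside the comparison. KO saline libraries were not used.

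Gene names and positions came from GENCODE M21 (GRCm38). Gene sums, transcripts and shares were each tested with limma 3.58.1 in R 4.3.3 (trend and robust options, two-sided) on log2(FPKM + 1), with the 15 libraries of the 3 groups in 1 model (12 residual degrees of freedom), a mean of at least 1 FPKM and Benjamini-Hochberg adjustment over all features. The pseudocount of 1 shrinks the differences of low values. The labels do not say that libraries are separate animals, so p-values measure the spread between libraries. Sequences were handled with Biopython 1.88 in Python 3.11.15, and the scripts were tested on simulated data. Alternatives were another pseudocount, filter, scaling, set of libraries, set of transcripts, sample weights, limma options and voom on recovered reads, and leaving out each library in turn.

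Named genes are Dapk1, all genes and transcripts past the threshold up to a limit, the 10 smallest p in a direction where fewer pass, and the 2 members of each list with the smallest p, leaving out unnamed models. Others were chosen after their values were seen: Gm7849, Fabp2, Apoa1, Lyz1, Fmr1, Napsa, Xpo4, Coro1a, Tef, Hlf, Arntl, Nr1d1, Top2a, Acta2 and the further MHC, macrophage and glucocorticoid genes. The comparison, the lists and the rule were chosen with earlier results of these data known.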

Additional observations from a re-analysis of the deposited data

Results flagged for a closer look

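Groups of 5 libraries were checked for 1 library apart from the other 4 by a gap above 0.71 of the range. Normally distributed values pass that limit in about 1 in 20 groups. FPKM of chosen genes need not be so distributed, so that rate cannot be set against the count found here. Such a library was found in 19 of 204 groups. KOAngII612 was the one in 8 of them: it was high for Cdkn1a (73.3 FPKM, others 40.7 to 47.0), Nfil3 (13.9, others 3.03 to 4.92), Ccl2 (8.97, others 0.203 to 2.01), Col8a1 (30.9, others 10.2 to 14.8), Top2a (7.41) and Rrm2 (3.997), and low for Sh2b1 (0.181, others 1.12 to 1.47) and Usp18 (0.684, others 2.26 to 2.68). KOAngII560 was high for Omd (13.8), Agtr1b (6.22), Npr1 (9.39) and Tgfbi (260.3, others 101.0 to 135.7), and KOAngII537 for Loxl2 (7.11). In WT saline, WTNS_547 was high for Ifit3 (12.8, others 0.651 to 3.23) and Atp2b1 (18.2), WTNS_373 was high for Agtr1b (2.48) and low for Btg2 (15.1), WTNS_369 was high for Hmox1 (11.9) and WTNS_523 for H2-DMb1 (5.39). All values are FPKM.

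Genes of the intestinal marker lists that only the KO Ang II tables hold, outside the genes tested, summed to at least 14.98 FPKM in each KO Ang II library, and there is no WT value to set beside them.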

How the results depend on the processing

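The number of genes past limma was 11, and 0 with a pseudocount of 0.1 (907 genes at an unadjusted p under 0.05), with a mean of at least 5 FPKM (506), without libraries numbered below 500 (822) and without the intestinal marker genes (924); sample quality weights gave 18, and voom on recovered reads 14. For transcripts the count was 15, and 6 with the pseudocount of 0.1 and 1 with the mean of at least 5 FPKM. For shares it was 4, and 2 with the mean of at least 5 FPKM, 2 with no filter and 7 with only the 10 compared libraries. Leaving out each library in turn gave 0 to 11 genes, 1 to 11 transcripts and 2 to 6 shares, and Dapk1 at -1.72 to -1.03; of the genes, 0 passed without WTNS_523, WTNS_547 or KOAngII537. Of the named genes Pak1, at -0.75, turned to 0.22 with all annotated transcripts and unlisted ones at 0, because transcripts were added. The causes of the other changes were not tested. Limits: genes low in both WT groups, or in both Ang II groups, are outside the comparison. Reads shared by copies and forms were divided by a program not known here, and the genotype and infusion differ together. No paired analysis was possible because the groups share no replicate numbers.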
